A study of Homo sapiens with 7 samples.

Results

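Plastins, fascin, the alpha-actinins, EPS8 and the ERM proteins ezrin and moesin bundle actin filaments or tie them to the membrane. Their RNA is described here in PC9, a human cell line from a lung adenocarcinoma with mutant, active EGFR. The set was chosen by name and holds 10 genes: LCP1, PLS1, PLS3, FSCN1, VIL1, EZR, MSN, ACTN1, ACTN4 and EPS8. Of these, 9 had a row among the 16527 rows of the authors' deposited table, and VIL1, which encodes villin, was not analysed here. The set was proposed with the fold changes of this same comparison known, so the members' values are given as a description. The study sequenced 7 libraries by bulk MARS-seq, which counts tags from the 3' ends of polyadenylated RNA. Of these libraries, 3 were of parental PC9 cells and 4 of AXL knockout PC9 cells, from clone 1 and clone 2 with 2 libraries each, and no treatment is named for any group. The sample labels number the clones, while the study's design text names a pair of founding cells and then the knockout groups with 1 name that differs, so which cell each clone came from is not settled. AXL is a receptor tyrosine kinase. Each clone was raised from a single sorted cell, so changes that arose in a founding cell cannot be told apart from the loss of AXL.

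Plastins lay actin filaments side by side in tight parallel bundles, fascin packs the straight bundles of filopodia, and alpha-actinin spaces filaments more loosely in stress fibres and at the cell cortex. Ezrin and moesin join filaments to the plasma membrane, with a head that binds membrane proteins and a tail that binds actin. In epithelia PLS1, EZR, villin and EPS8 are known from apical microvilli, whereas LCP1 (L-plastin) and MSN are abundant in leukocytes, and LCP1 is also found in many carcinoma lines.

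All levels below are implied group levels in normalized counts, computed from the mean and the log2 fold change of the authors' deposited table. Values of single libraries were not analysed here, so no level carries a spread of its own and overlap between the groups' libraries was not assessed. Fold changes are knockout over parental on the log2 scale, each followed by the authors' standard error. These errors treat the 4 knockout libraries as independent, though they come from 2 clones. The libraries' mean counts summed to 12209504, which is the depth of an average library, and size factors, recovered from rows with the fewest reads, lay between 0.938 and 1.06. The targeted gene, AXL, stood at 1417 in parental and 18.2 in knockout cells (-6.28 ± 0.18). RNA of the mitochondrial genome made up 4.07% of implied counts in parental and 2.34% in knockout cells, a difference whose part in the results below was not tested, while 78 cytosolic ribosomal protein genes had a median log2 fold change of 0.01. The epithelial label of the line was matched by its markers: all 10 listed epithelial genes were measured, among them EPCAM at a mean of 7859 and KRT7 at 33389.

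Taking the authors' deposited table at a threshold of 0.05 for the adjusted p, 5 members were lower in AXL knockout cells, 3 were higher and 1 did not pass. Over all 16522 genes tested, 18.5% were lower and 19.5% higher at that threshold, 38.0% in all. Among the 2967 genes with a mean of at least 1000, where all measured members but PLS1 lie, 27.7% were lower and 31.7% higher, 59.4% in all. LCP1 and MSN were more than 2-fold lower, and 4.64% of all genes tested were called lower by at least that fold. The members' median log2 fold change was -0.40, beside -0.01 over all genes tested. Because the set was proposed with these fold changes known, nothing is read from its counts.

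**Figure D1:**
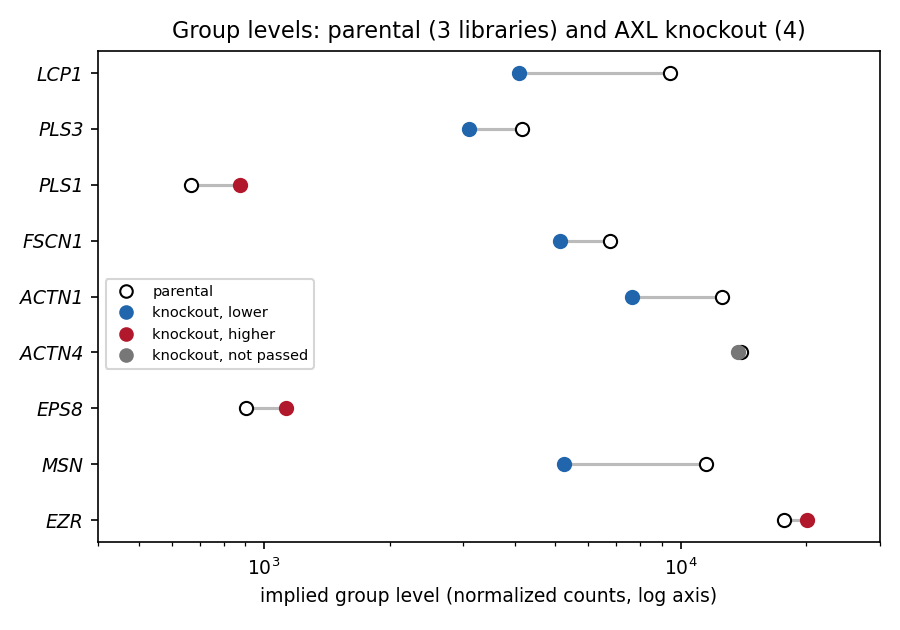
Implied level of each member (horizontal axis, normalized counts, log axis) in parental cells (open circles) and in AXL knockout cells (filled circles, coloured by the authors' adjusted p), with 1 row per gene. LCP1 and MSN show the widest gaps, from 9432 to 4093 and from 11467 to 5233, while the circles of ACTN4 nearly coincide.

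The sequences upstream of LCP1, PLS1, MSN and EZR are shown because, among the members, these genes had the lowest and the highest fold change of the plastins and of the ERM proteins. Each is the stretch of 250 bases before a RefSeq start site (GRCh38.p14), in the direction of transcription. MSN has 2 listed starts, and both are shown. PLS1 has 3, of which the first is shown. Tags from 3' ends do not tell which start was used. Capitals mark matches on either strand to the GC box GGGCGG, the AP-1 motif TGANTCA or the TEAD motif GGAATG.
LCP1, chr13:46182178-46182427, minus strand: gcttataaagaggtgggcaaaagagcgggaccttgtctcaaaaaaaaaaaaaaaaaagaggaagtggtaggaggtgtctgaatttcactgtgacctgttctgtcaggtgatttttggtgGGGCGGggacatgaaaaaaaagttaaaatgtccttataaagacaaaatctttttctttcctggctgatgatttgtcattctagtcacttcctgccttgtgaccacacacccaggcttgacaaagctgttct
PLS1 start 1, chr3:142596143-142596392, plus strand: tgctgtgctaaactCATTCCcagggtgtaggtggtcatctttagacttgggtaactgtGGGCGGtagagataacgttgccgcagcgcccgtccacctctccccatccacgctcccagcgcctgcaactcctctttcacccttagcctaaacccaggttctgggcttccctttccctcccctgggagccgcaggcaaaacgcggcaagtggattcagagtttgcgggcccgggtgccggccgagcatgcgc
MSN start 1, chrX:65588127-65588376, plus strand: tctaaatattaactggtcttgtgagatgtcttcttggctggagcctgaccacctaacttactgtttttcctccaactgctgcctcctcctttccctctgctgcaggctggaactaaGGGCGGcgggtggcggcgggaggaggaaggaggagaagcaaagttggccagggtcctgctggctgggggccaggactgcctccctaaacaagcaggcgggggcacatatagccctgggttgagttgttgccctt
MSN start 2, chrX:65667404-65667653, plus strand: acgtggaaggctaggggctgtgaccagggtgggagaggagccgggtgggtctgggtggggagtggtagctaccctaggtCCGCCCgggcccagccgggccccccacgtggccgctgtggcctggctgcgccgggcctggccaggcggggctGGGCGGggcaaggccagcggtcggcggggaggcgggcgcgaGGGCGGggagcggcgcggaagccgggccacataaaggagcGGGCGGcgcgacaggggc
EZR, chr6:158818236-158818485, minus strand: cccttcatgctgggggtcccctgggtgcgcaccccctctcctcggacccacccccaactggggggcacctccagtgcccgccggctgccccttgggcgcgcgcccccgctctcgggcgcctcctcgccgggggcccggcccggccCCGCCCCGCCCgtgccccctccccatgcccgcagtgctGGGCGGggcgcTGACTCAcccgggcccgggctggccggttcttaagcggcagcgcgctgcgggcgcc

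These stretches differed in base composition. The LCP1 stretch was 41.2% G or C, against a median of 58.0% over all 35116 upstream stretches of the RefSeq table. EZR stood at 80.8%, the second MSN start at 78.0%, the first at 57.2% and the first PLS1 start at 60.8%. The PLS1 starts not shown stood at 38.4% and 37.2%, below LCP1. Because the start in use is not known, base composition does not set LCP1 apart from PLS1. The GC box occurred once in LCP1 and in the first PLS1 and MSN stretches. It occurred 3 times in EZR and 4 times at the second MSN start, and 42.6% of all stretches held at least 1. The PLS1 stretches not shown did not hold it. The AP-1 motif was found in EZR and not in the other 4 sequences shown, and 6.57% of all stretches held it. Among the members' stretches not shown, the first ACTN4 start also held it. A TEAD match occurred in the PLS1 stretch shown, as in 11.9% of all stretches, and also at the second PLS1 start and the third ACTN1 start. Of all 15 stretches listed for 7 of the members, 1 held a CArG box, the motif of SRF, at the third of the 4 ACTN1 starts; 1.16% of all stretches held one. A match of letters is a description of the window and does not show that a factor binds there. FSCN1 and EPS8 had no entry.

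The plastins differed in direction. LCP1 (ENSG00000136167; chromosome 13, 46125920 to 46211871, GRCh38 in GENCODE 29), the plastin of leukocytes, fell from 9432 normalized counts in parental cells to 4093 in the knockout, 2.30-fold lower. Its log2 fold change was -1.20 ± 0.05, with a 95% interval of -1.29 to -1.11, the lowest of the members. PLS3 (ENSG00000102024; chromosome X, 115561174 to 115650861), the T-plastin of most solid tissues, stood at 4154 and 3102, with -0.42 ± 0.05 and an interval of -0.52 to -0.33. PLS1 (ENSG00000120756; chromosome 3, 142596387 to 142713664), the plastin of intestinal microvilli, moved the other way, from 667 to 874. Its log2 fold change of 0.39 ± 0.08 had an interval of 0.24 to 0.54 and was the highest of the members.

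Summed over the plastins, normalized counts came to 14253 in parental cells and 8069 in the knockout, a 1.77-fold difference. LCP1 made up 66.2% of that sum in parental and 50.7% in knockout cells. The share of PLS3 was 29.1% and 38.4%, and that of PLS1 was 4.68% and 10.8%. These are shares of 3' tags, not scaled by transcript length, and they are set side by side between the groups rather than between the genes.

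Because LCP1 is a leukocyte gene, a list of 16 leukocyte markers was set beside it. Of these, 8 had values: 3 were higher, 2 lower and 3 did not pass, with a median log2 fold change of 0.11. Together they came to 3690 normalized counts in parental cells and 3713 in the knockout, most of it from ARHGDIB at 2627 and 3177. LAPTM5, a lysosomal protein of blood cells, had the smallest p of the markers and stood at 766 and 220 (-1.80 ± 0.10). ITGB2, the beta chain of the leukocyte integrins, stood at 24.5 and 50.4 (1.04 ± 0.28), and DOCK2 at 17.4 and 36.9 (1.08 ± 0.32). The defining marker PTPRC was not analysed here, and the part of these markers in the value of LCP1 was not tested. In bulk RNA, fewer cells with a transcript and less of it per cell cannot be told apart.

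FSCN1 (ENSG00000075618; chromosome 7, 5592823 to 5606655), the fascin of filopodia, stood at 6753 in parental and 5122 in knockout cells in the authors' deposited table. Its log2 fold change was -0.40 ± 0.04, with an interval of -0.48 to -0.31. That is close to the value of PLS3, and the intervals of these genes overlap.

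The alpha-actinins of non-muscle cells parted. ACTN1 (ENSG00000072110; chromosome 14, 68874143 to 68979440), the isoform of stress fibres and focal contacts, fell from 12572 to 7640, 1.65-fold lower. Its log2 fold change was -0.72 ± 0.05, with an interval of -0.81 to -0.63. ACTN4 (ENSG00000130402; chromosome 19, 38647649 to 38731583), its close relative, stood at 13963 and 13677. With -0.03 ± 0.05 it did not pass the test (adjusted p 0.701 in the authors' Wald test). Its interval of -0.13 to 0.07 treats libraries of the same clone as independent. A wider range may hold for other knockout clones. ACTN1 gave 47.4% of the summed alpha-actinin counts in parental and 35.8% in knockout cells.

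EPS8 (ENSG00000151491; chromosome 12, 15620158 to 15882329), an adaptor that caps filament ends and, with its partners, bundles filaments and passes receptor signals to Rac, was higher. Parental cells had 906 normalized counts and knockout cells 1132, a log2 fold change of 0.32 ± 0.06 with an interval of 0.19 to 0.45 in the authors' deposited table.

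The ERM proteins also differed in direction. MSN (ENSG00000147065; chromosome X, 65588377 to 65741931), moesin, fell from 11467 to 5233, 2.19-fold lower. Its log2 fold change of -1.13 ± 0.06 had an interval of -1.25 to -1.01, which overlaps that of LCP1. EZR (ENSG00000092820; chromosome 6, 158765741 to 158819412), ezrin, the ERM protein of epithelial microvilli, stood at 17675 and 20121. Its log2 fold change was 0.19 ± 0.06, with an interval of 0.07 to 0.30, the smallest of the changes that passed. EZR no longer passed when a t distribution with 5 degrees of freedom replaced the normal.

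The third ERM protein, radixin (RDX), is not in the set, and stood at 2664 in parental and 5077 in knockout cells (0.93 ± 0.04). Summed with EZR and MSN, ERM counts were 31807 and 30432, a log2 ratio of -0.06. Within that sum MSN made up 36.1% in parental and 17.2% in knockout cells, EZR 55.6% and 66.1%, and RDX 8.38% and 16.7%. RDX lies on chromosome 11 among higher genes: 19 of its 20 nearest neighbours were higher and none was lower, with a median log2 fold change of 0.42. The part of that region in the value of RDX was not tested.

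**Figure D2:**
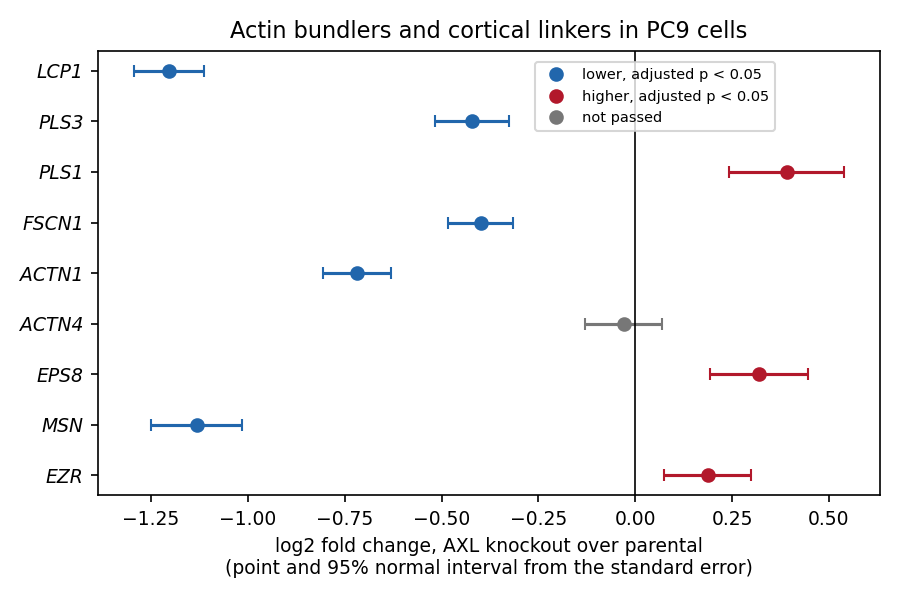
Log2 fold change of each member, AXL knockout over parental (horizontal axis), with its 95% normal interval from the authors' standard error; colour marks the authors' adjusted p. Intervals of LCP1, PLS3, FSCN1, ACTN1 and MSN lie below 0, those of PLS1, EPS8 and EZR above 0, and that of ACTN4, from -0.13 to 0.07, crosses it.

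**Figure D3:**
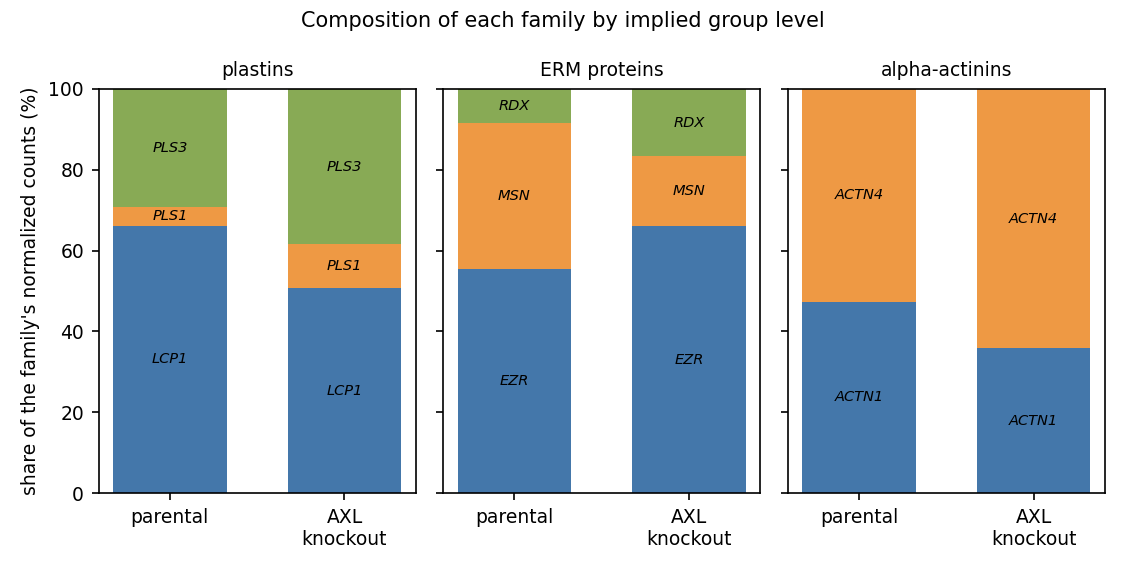
Share of each gene in the summed implied counts of its family (vertical axis, percent) in parental and AXL knockout cells, for plastins, ERM proteins (with RDX) and alpha-actinins. The shares of LCP1 (66.2% and 50.7%), MSN (36.1% and 17.2%) and ACTN1 (47.4% and 35.8%) are smaller in knockout cells; the shares are of 3' tags and carry no error bars because values per library were not analysed.

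Set among the 2967 genes with a mean of at least 1000, LCP1 and MSN lie near the lower end of the fold changes: 20 genes (0.674%) had a fold change as low as that of LCP1 or lower, itself included, and 25 genes (0.843%) one as low as that of MSN. For ACTN1 the number was 95 (3.20%), for PLS3 249 (8.39%) and for FSCN1 266 (8.97%). Upward, 464 genes (15.6%) reached the fold change of EPS8 and 753 (25.4%) that of EZR. The median absolute log2 fold change of these abundant genes was 0.17. The change of EZR was close to that size, and those of LCP1 and MSN were well beyond it.

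**Figure D4:**
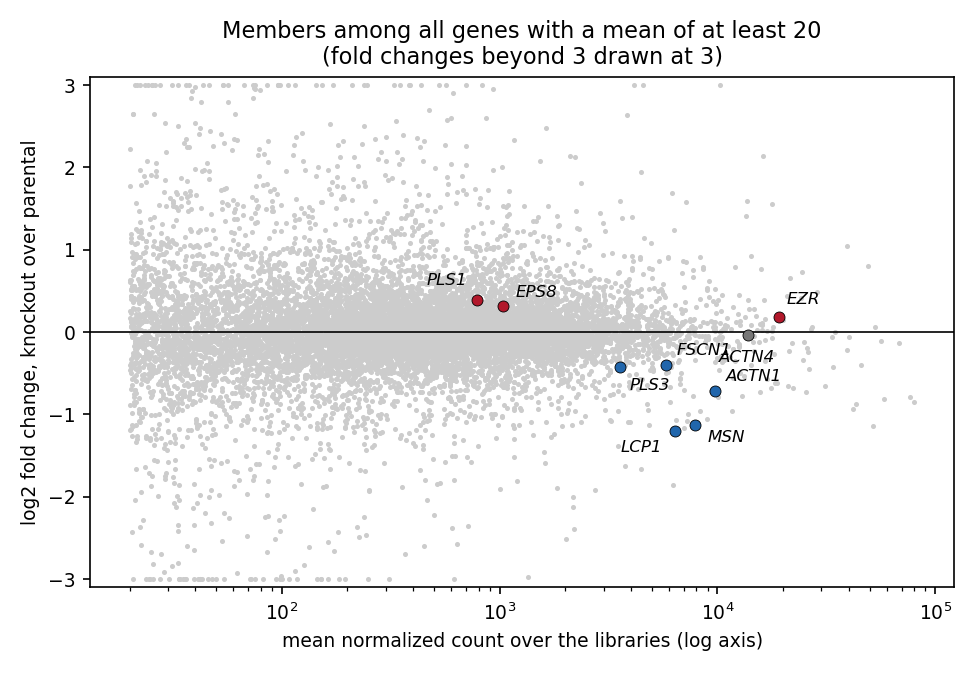
Log2 fold change, AXL knockout over parental (vertical axis, values beyond 3 drawn at 3), against the mean normalized count (horizontal axis, log axis) for all genes with a mean of at least 20 (grey points), with the members in colour and labelled. LCP1 at -1.20 and MSN at -1.13 sit at the lower edge of the cloud at their abundance, and PLS1, EPS8, EZR and ACTN4 sit inside it.

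The members were measured with similar precision. From the authors' standard errors, the fitted coefficient of variation between libraries of a group was 3.69% to 5.84%, lowest for FSCN1 and highest for PLS1. The standard errors ran from 0.04 to 0.08, beside a median of 0.06 over genes with a mean of at least 1000. Counting alone would give a standard error of 0.01 for LCP1, beside its 0.05, and of 0.04 for PLS1, beside its 0.08. Such errors add as squares, so these values are not shares. The 2 clones were fitted as 1 group of 4 libraries, so this fitted spread does not set apart any difference between them.

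The neighbours of each member on its chromosome, 10 measured protein-coding genes on either side whose mean reached 50, were set beside it. The neighbours of LCP1 had a median log2 fold change of 0.08, with 4 lower and 3 higher, and none was as low as LCP1. Around MSN 1 neighbour was lower and 4 were higher, and again none was as low. The neighbours of ACTN1 had a median of -0.11, with 6 lower, and 1 of them was as low as ACTN1. Around PLS3, on the same chromosome as MSN, the median was 0.03, and 3 of 20 neighbours were as low as PLS3. Around PLS1 it was -0.06, with 6 higher and 8 lower, and 5 neighbours were as high as PLS1. FSCN1 had a neighbour median of 0.01, with 1 neighbour as low. ACTN4 had one of 0.02, with 7 neighbours at or below its own value near 0. Around EZR the median was -0.01, with 5 higher and 5 lower, and 6 neighbours were as high as EZR. The neighbours of EPS8 had a median of 0.17 with 9 of 20 higher, and 5 were as high as EPS8.

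Where 3' ends share sequence, tags of one gene can be credited to another. Over the last 500 bases of their coding transcripts in GENCODE 29, LCP1, PLS1, EZR, ACTN1 and EPS8 shared no stretch of 50 bases with a transcript of any other gene. PLS3 shared 5 of 2128 such stretches (0.235%). MSN shared 24 of 902 such stretches (2.66%) with its processed pseudogene MSNP1, and FSCN1 18 of 1124 (1.60%) with FSCN1P1. Of the 9 members with values ACTN4 shared most, 158 of 1760 (8.98%): 71 with CAPN12 on the opposite strand, 63 with the pseudogene ACTN4P1 and 24 with ACTN1. Whether tags were counted by strand is not given in the sources, so some ACTN4 tags may belong to CAPN12. EZR also overlaps an antisense gene, EZR-AS1, in its exons. ACTN1 overlaps a processed pseudogene, HMGN1P3, on its own strand.

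Around the members, 12 lists of other actin genes hold 183 genes, of which 165 were measured; ESPN and BAIAP2L1 stand in a pair of lists and are counted once. By the authors' deposited table, 40 of these (24.2%) were higher in knockout cells and 65 (39.4%) lower, and 60 did not pass, with a median log2 fold change of -0.09. Over all genes tested the shares were 19.5% and 18.5%, and among those with a mean of at least 1000 they were 31.7% and 27.7%. The lists were chosen with earlier results of these data known and are described by count and median. The genes named below are those with the smallest p in each list, so their values are not typical of it.

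The filaments themselves came next. Of 14 actins, tropomyosins and non-muscle myosin II genes, 8 were lower and 2 higher, with a median of -0.23. ACTB, beta-actin, stood at 107594 in parental and 59699 in knockout cells (-0.85 ± 0.05), and ACTG1, gamma-actin, at 39170 and 24889 (-0.65 ± 0.04). TPM4, a tropomyosin of stress fibres, stood at 8119 and 4508 (-0.85 ± 0.04), and MYH9, the heavy chain of non-muscle myosin IIA, at 20659 and 13940 (-0.57 ± 0.07).

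Of 22 crosslinkers and bundlers outside the set, 11 were lower, 6 higher and 5 did not pass, with a median of -0.21. FLNC, a filamin that joins filaments into networks, stood at 433 and 114 (-1.92 ± 0.11). DBN1, drebrin, which coats filament sides, stood at 2503 and 914 (-1.45 ± 0.06), and CNN2, a calponin, at 1456 and 598 (-1.28 ± 0.06). Of 20 actin linkers of focal adhesions, 11 were lower and 3 higher, with a median of -0.37. TNS4, a tensin, stood at 788 and 272 (-1.54 ± 0.09). The kindlins FERMT1 and FERMT2, which activate integrins, had -1.13 ± 0.06 and -1.43 ± 0.13, and ZYX, zyxin, a partner of alpha-actinin, had -0.57 ± 0.05.

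Relatives of the members went both ways. Among 7 measured relatives of the plastins, fascin, villin and the actinins, 3 rose and 2 fell (median log2 fold change 0.31). SVIL, supervillin, had 0.76 ± 0.07 and CAPG, a capping protein, 0.31 ± 0.06. The severing protein GSN, gelsolin, had -0.84 ± 0.10 and FLII -0.68 ± 0.05. Of 8 measured relatives and partners of EPS8, 3 were higher and 0 lower by the authors' Wald test with DESeq2. The other 5 did not pass, and 0 were lower also at an unadjusted p under 0.05. EPS8L2 had 0.39 ± 0.08, EPS15 0.57 ± 0.07 and WHRN, whirlin, 0.51 ± 0.17.

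Linkers of the cortex were mixed as well. Of 16 further measured ERM and band 4.1 linkers, 5 rose and 4 fell (median log2 fold change 0.06). Besides RDX, the scaffold SLC9A3R1 (NHERF1), which binds ezrin, stood at 516 in parental and 907 in knockout cells (0.81 ± 0.07). EPB41L2 had -1.12 ± 0.08 and FRMD6, a FERM protein of the Hippo pathway, -1.03 ± 0.08. Of 10 listed membrane proteins that bind ERM proteins, 6 were measured, of which 3 rose and 1 fell (median log2 fold change 0.14). CD44 had 0.44 ± 0.04, ICAM1 0.29 ± 0.10 and L1CAM 3.02 ± 0.44 from a parental level of 5.17, and PODXL, podocalyxin, had -0.77 ± 0.12. Of 14 listed microvillus and brush border genes, 8 were measured, 6 of them with a mean of at least 20. Of those measured, 3 rose and 2 fell (median 0.10). ESPN, the microvillar bundler espin, stood at 9.09 and 33.9 (1.90 ± 0.41), MYO6 had 0.29 ± 0.07, MISP -0.67 ± 0.06 and MYO1D -0.49 ± 0.08.

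Genes that elongate, branch or cut filaments were counted in the same way. Of 15 genes of filopodia and filament elongation, 9 were lower and 4 higher, with a median of -0.24. The profilins, which feed actin monomers to growing ends, had -0.72 ± 0.05 (PFN1) and -0.39 ± 0.05 (PFN2). MYO10, the motor of filopodial tips, had -0.57 ± 0.06 and LPAR1, a lysophosphatidic acid receptor, -0.95 ± 0.11. Of 19 genes of Arp2/3 branching, 7 were lower and 2 higher, with a median of -0.03. CORO1C had -0.71 ± 0.05, ACTR3 -0.39 ± 0.05, ARPC4 -0.36 ± 0.06 and ARPC5 -0.25 ± 0.05. Of 18 capping and severing genes, 6 were lower and 3 higher, with a median of -0.10. SSH3, a cofilin phosphatase, had 0.84 ± 0.07, DSTN, destrin, 0.50 ± 0.05, CAPZA2 0.42 ± 0.07, and CFL2, a cofilin, -1.07 ± 0.12.

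**Figure D5:**
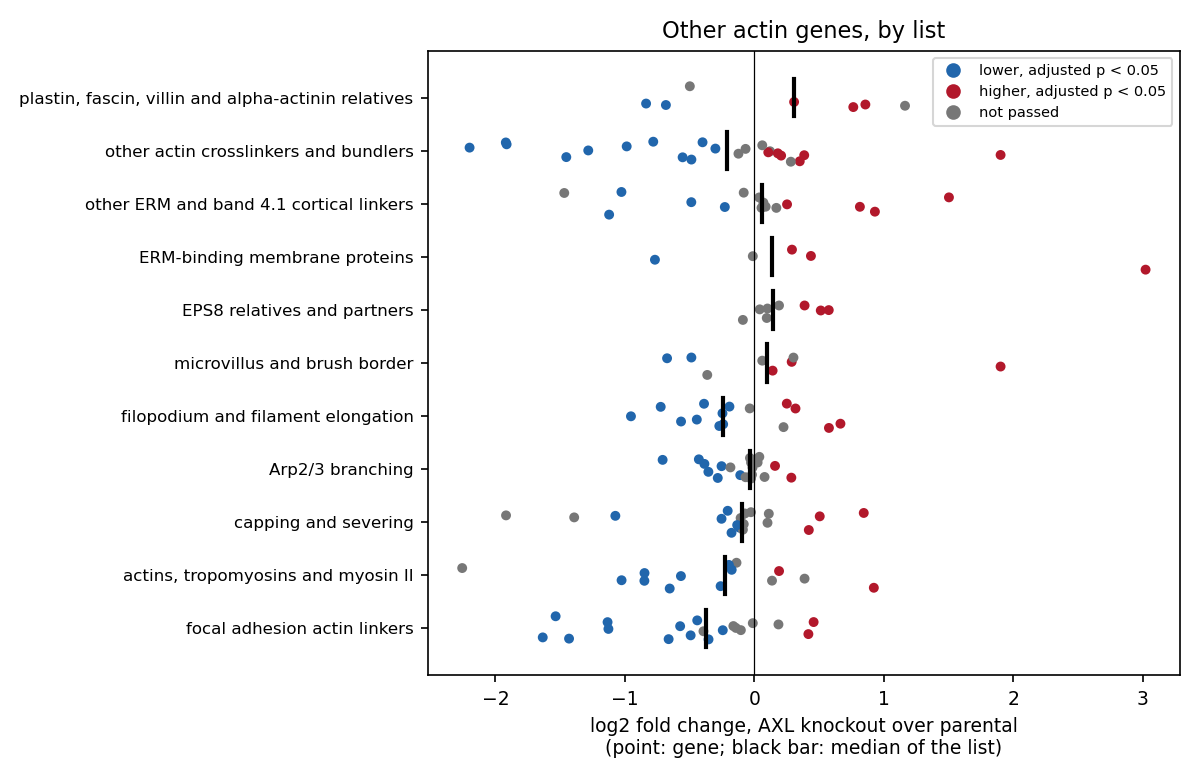
Log2 fold change, AXL knockout over parental (horizontal axis), of the measured genes of 11 lists of other actin genes (rows); points are genes coloured by the authors' adjusted p and black bars are list medians. Medians run from -0.37 for focal adhesion linkers to 0.31 for relatives of the members, and 3 genes with 3 implied reads or fewer in a group are not drawn.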

How the data were processed

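The libraries were made from poly-T primed RNA, sequenced on Illumina instruments and mapped to human sequence, per the labels' protocols. DESeq2 was used without a stated version, per the submitters' processing notes. For the aligner, counter, strand setting, build and annotation: not given in the sources used here. Each row of the deposited table is an Ensembl gene with, per the file headers, a signal (mean normalized count), the log2 fold change and its log2 standard error, a Wald score, and raw and adjusted p-values. The deposited Wald score equals the fold change over its standard error to within 1.56e-13, and the adjusted p-value is the Benjamini-Hochberg value over all 16522 tested rows.

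The contrast is not named. Each of the 68 means below 0.6 can be built, to within 1e-09, from whole multiples of 7 step sizes, 1 per library. Of these steps, 3 go with negative and 4 with positive fold changes, and the labels give 3 parental and 4 knockout libraries, which makes a positive value higher in the knockout. The sides were assigned from these same rows. Group levels were solved from mean and fold change, weighting parental by 3 and knockout by 4, and were tested on simulated counts of abundant genes. The coefficient of variation was solved from the standard error for a negative binomial model. Its check used simulated standard errors built from the same model with a known dispersion. That check covers the arithmetic and cannot show how well the deposited standard errors reflect each gene's own spread. The p-values and intervals treat the 4 knockout libraries as independent, though these come from 2 clones. They measure library-to-library spread, which may be partly technical. For a statement about AXL knockout beyond these clones they may be too narrow.

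Symbols were matched for 16428 identifiers, and 16517 were found in GENCODE 29, which gave positions. Promoter sequences are from RefSeq. The members, lists and alternatives were chosen with earlier results of these data known. Beside the members, up to 4 genes of each list are named, those with the smallest p among called genes whose mean reached 20; 1 gene named by this rule and 1 of the 12 actin lists are not reported here, though the counts over all lists hold them. The fits planned for values per library (a count model, replicates left out, a replicate block) could not be run on this table. Python 3.11.15 with SciPy 1.17.1 was used.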

Additional observations from a re-analysis of the deposited data

How the results depend on the processing

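Of the settings tried, an adjusted p under 0.01, a mean of at least 20 and centring on the median of 0.01 left 5 members lower and 3 higher and changed the call of none of the 9. With a t distribution of 5 degrees of freedom EZR no longer passed, which left 2 higher, and the number of genes called over the whole table went from 6281 to 3476. With a minimum of 2-fold, 2 members were lower (LCP1 and MSN), 0 were higher and 1501 genes were called over the table. Tested against an absolute log2 fold change of 0.5, 3 members were lower (LCP1, MSN and ACTN1), 0 were higher, and 1300 genes were called; these last settings ask for a larger change by construction. These settings reuse the deposited fold changes, or shift all of them alike by 0.01 in centring, so they do not test the members' direction. No paired analysis was possible because the deposited table holds 1 comparison and no values per library; for the same reason leaving out single libraries and other count models were not run, and clone 1 and clone 2 were not compared with each other. With means of 785 to 19073, depth did not limit the members' values, while lists hold genes with few reads, whose changes may be missed at this depth.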

Other observations

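Further markers were listed to describe the cells. By the authors' deposited table, 6 of the 10 epithelial genes were higher in the knockout and 2 lower, with a median log2 fold change of 0.33. The keratins KRT8, KRT18 and KRT19, the filaments of simple epithelium, had 1.04 ± 0.04, 0.72 ± 0.04 and 0.49 ± 0.06, and the tight junction gene CLDN4 had 0.61 ± 0.06. The 2 lower genes, named outside the rule of smallest p, were CDH1 at -0.33 ± 0.06 and GRHL2 at -0.17 ± 0.07. EPCAM and KRT7 did not pass. Of 12 fibroblast and endothelial genes, 4 were measured, summing to 934 normalized counts in parental cells and 2171 in the knockout. PECAM1, an adhesion molecule best known from endothelium, stood at 351 and 1777 (2.34 ± 0.07) and made up most of the knockout sum, and COL1A1, a collagen chain, had -0.59 ± 0.17. CDH5, the endothelial cadherin, named after its value was seen, stood at 455 in parental cells and 305 in the knockout. It made up the largest part of the parental sum. At -0.57 ± 0.25 it just missed the threshold (adjusted p 0.0507 in the authors' Wald test). With a mean of at least 20, or with centring, it passed, and the list's lower genes went from 1 to 2. The endothelial marker VWF had a mean of 3.20.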
